A study of Mus musculus with 6 samples.

Results

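The 7 skeletal myosin heavy chain genes of the mouse, *Myh1*, *Myh2*, *Myh3*, *Myh4*, *Myh7*, *Myh7b* and *Myh8*, were followed through RNA-seq of quadriceps muscle from 3 control and 3 miDrp1KO mice. They were taken by gene symbol from the 27179 genes listed, all 7 were found, and all 7 passed the filter on low counts that left 16483 genes to test. The miDrp1KO mice carried floxed *Dnm1l* alleles, the gene of the mitochondrial fission GTPase Drp1, together with HSA-MerCreMer, a tamoxifen-activated Cre driven by the human skeletal actin (*ACTA1*) promoter. The control mice, labelled Control f/f, carried the floxed alleles, and both groups received tamoxifen. The floxed line had been backcrossed to C57BL/6J, and muscle was taken 3 weeks after deletion of *Dnm1l*. The study kept mice on normal chow or a high-fat diet, and its paper does not state which the RNA-seq mice received. The study states that its experiments after a first comparison of the sexes used male mice. Cre driven by this promoter acts in muscle fibres, while the heavy chain RNA of quadriceps was measured in whole tissue.

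Myosin heavy chains are the motor proteins of the thick filament, and the isoform in a fibre sets how fast it contracts. In adult mouse limb muscle *Myh4* encodes the fast type 2B chain, *Myh1* the fast type 2X chain, *Myh2* the fast type 2A chain and *Myh7* the slow type 1 chain, which the heart also uses. *Myh3* (embryonic) and *Myh8* (neonatal) encode the developmental chains that adult chains replace after birth and that appear again in regenerating fibres, and *Myh7b* encodes a slow-type chain known from specialised muscles.

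On GRCm38.p6 the members *Myh3* (67078273 to 67102291), *Myh2* (67171027 to 67197517), *Myh1* (67200102 to 67224577), *Myh4* (67237812 to 67260447) and *Myh8* (67277124 to 67308634) stood in this order on the plus strand of chromosome 11, within 230362 bases. *Myh2* and *Myh1* were the closest neighbours, with 2584 bases between them. *Myh7* lies on the minus strand of chromosome 14 (54970684 to 54994626) and *Myh7b* on the plus strand of chromosome 2 (155611243 to 155634307). The longest coding transcripts ran from 6016 bases for *Myh4* to 6230 bases for *Myh7* in the GENCODE annotation of GRCm38. Their coding sequences were close copies. *Myh1* and *Myh2* were identical at 91.0% of aligned bases, *Myh1* and *Myh4* at 90.1%, *Myh4* and *Myh8* at 87.9%, and *Myh3* and *Myh4* at 80.3%. *Myh7b* was the most distant, at 68.5 to 71.7% of bases to the other members.

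This likeness bears on the counts of all members but *Myh7b*, since a short read from a shared stretch cannot be placed on 1 gene. The stretch of 60 coding bases in which the chromosome 11 members were most alike was read from that annotation for each gene, and capitals mark bases unlike *Myh4*. In *Myh4* it covers chr11:67253427-67253486, in exon 26 of 39 of the transcript.
Myh1: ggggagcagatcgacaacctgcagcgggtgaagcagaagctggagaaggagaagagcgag
Myh2: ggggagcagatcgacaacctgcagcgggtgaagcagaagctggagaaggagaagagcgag
Myh3: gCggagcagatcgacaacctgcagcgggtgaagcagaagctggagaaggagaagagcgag
Myh4: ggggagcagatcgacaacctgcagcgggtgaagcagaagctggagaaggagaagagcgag
Myh7: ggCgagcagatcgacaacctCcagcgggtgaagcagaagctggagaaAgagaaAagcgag
Myh7b: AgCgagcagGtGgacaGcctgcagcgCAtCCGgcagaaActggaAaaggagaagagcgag
Myh8: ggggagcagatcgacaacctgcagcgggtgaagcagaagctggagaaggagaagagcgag
The stretch was the same in *Myh1*, *Myh2*, *Myh4* and *Myh8*, differed at 1 base in *Myh3*, at 4 in *Myh7* and at 12 in *Myh7b*. The stretch in which they were least alike is shown in the same way. In *Myh4* it covers chr11:67248695-67248754, in exon 15 of 39.
Myh1: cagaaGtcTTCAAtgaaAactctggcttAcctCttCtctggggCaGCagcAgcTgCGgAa
Myh2: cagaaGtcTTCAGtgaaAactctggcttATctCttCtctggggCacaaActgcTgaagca
Myh3: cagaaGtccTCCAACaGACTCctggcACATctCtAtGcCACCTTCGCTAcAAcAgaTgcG
Myh4: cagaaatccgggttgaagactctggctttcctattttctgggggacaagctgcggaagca
Myh7: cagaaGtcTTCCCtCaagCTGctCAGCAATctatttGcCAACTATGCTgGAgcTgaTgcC
Myh7b: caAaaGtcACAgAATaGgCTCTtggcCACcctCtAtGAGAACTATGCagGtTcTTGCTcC
Myh8: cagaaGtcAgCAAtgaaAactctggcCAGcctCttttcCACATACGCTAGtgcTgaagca
Here 18 of the 60 bases of *Myh1*, 14 of *Myh2*, 23 of *Myh8* and 35 of *Myh3* were unlike *Myh4*, so a read from it names its gene. Over whole transcripts, 18.9% of the windows of 50 bases in *Myh4* occurred word for word in another member, in *Myh6* or in *Myh13*. The share was 26.7% for *Myh1*, 26.9% for *Myh2*, 21.4% for *Myh8*, 4.81% for *Myh3* and 0 for *Myh7b*. For *Myh7* it was 22.2%, all of it shared with *Myh6*, the cardiac alpha chain. With windows of 100 bases these shares were 9.73% for *Myh1*, 9.17% for *Myh2*, 1.15% for *Myh3*, 3.85% for *Myh4*, 11.2% for *Myh7*, 0 for *Myh7b* and 6.61% for *Myh8*. The read length and the handling of reads with several matches are not given in the sources used here, so how far counts passed between members was not tested.

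Control libraries held 13989588 to 62042255 counts and miDrp1KO libraries 20028624 to 28829756. The deleted gene, *Dnm1l*, was at 114 to 156 CPM (counts-per-million, on library sizes scaled by edgeR's TMM method) in control and 66.2 to 81.3 CPM in miDrp1KO muscle, without overlap. *Acta1*, the skeletal muscle actin and a myofibre marker, was at 17030 to 17847 CPM in control and 8245 to 14183 CPM in miDrp1KO libraries, without overlap (log2 fold change -0.56, adjusted p = 0.563, edgeR). Such a lack of overlap in the lower direction was found for 10.3% of all genes. *Acta1* is 1 of 7 myofibre markers, of which 6 had lower estimates and 2 had no overlap. The sums of the 7 overlapped between groups, and *Mb*, the myoglobin gene, had a higher estimate (0.67). Ribosomal RNA genes took 3.36 to 15.6% of the control counts and 1.47 to 24.4% of the miDrp1KO counts. The miDrp1KO replicate 3 stood apart in transcript length: its 2899 tested genes with transcripts under 2 kilobases had a median 0.26 above the control mean on the log2 scale, its 2098 genes of 5 to 7 kilobases, the range of the heavy chains, had a median of -0.15, and its 398 genes over 10 kilobases a median of -0.23. In the other 5 libraries these medians lay between -0.08 and 0.10. Without that replicate the pool difference described next was -26042 in place of -33062, and the log2 fold changes from edgeR were -0.97 for *Myh4*, -0.94 for *Myh8*, -0.67 for *Myh3* and -0.48 for *Myh2*, in place of -1.29, -1.29, -0.998 and -0.74.

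The 7 genes together took less of the RNA in every miDrp1KO library than in any control library. Their counts were 5.83, 6.35 and 7.29% of all counts in control replicates 1, 2 and 3, and 4.02, 3.76 and 1.78% in miDrp1KO replicates 1, 2 and 3. In CPM without TMM scaling this was 64908 ± 7409 in control and 31847 ± 12227 in miDrp1KO muscle (SD, n = 3), a difference of -33062 with p = 0.1 by an exact two-sided permutation test, which with 3 against 3 cannot give less. Leaving ribosomal RNA genes out of the totals gave 71171 ± 3696 and 37955 ± 14309, again without overlap. With TMM library sizes the values were 69860 ± 5292 and 30399 ± 15567. The miDrp1KO replicate 1 was the nearest to the controls on all 3 scales. In whole tissue, fewer fibres of a kind and less RNA per fibre cannot be told apart.

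The make-up of the pool, in contrast, differed more from library to library than between the groups. *Myh4*, the type 2B chain, was 71.8, 89.9 and 83.5% of the heavy chain counts in control replicates 1, 2 and 3 and 84.9, 64.7 and 71.5% in miDrp1KO replicates 1, 2 and 3. Its mean share was 81.8 ± 9.18% in control and 73.7 ± 10.3% in miDrp1KO muscle (SD, n = 3), and the difference of -8.02 percentage points was smaller than either SD (two-sided exact permutation test, p = 0.4). It depended on single libraries, at -13.6 without miDrp1KO replicate 1, -13.0 without control replicate 1, -3.93 without control replicate 2 and -3.53 without miDrp1KO replicate 2. *Myh1*, the type 2X chain, held 15.9, 2.36 and 8.54% in control and 6.13, 19.5 and 16.0% in miDrp1KO libraries. *Myh2*, the type 2A chain, held 8.95, 3.77 and 4.58% in control and 5.03, 12.4 and 9.12% in miDrp1KO libraries. The libraries with the least *Myh4*, control replicate 1 and miDrp1KO replicates 2 and 3, had the most *Myh1* and *Myh2*. The 3 adult fast genes summed to 96.0 to 96.7% of the pool in every library, with group means of 96.45 ± 0.345% and 96.43 ± 0.300% (SD, n = 3), so what differed between libraries was mostly the split among fast chains.

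The slow share was under 1% everywhere and differed the most in relative terms. *Myh7* was 0.138, 0.00382 and 0.0178% of heavy chain counts in control replicates 1, 2 and 3 and 0.00818, 0.656 and 0.523% in miDrp1KO replicates 1, 2 and 3. The 34 counts of *Myh7* in control replicate 2 allow a share of 0.00274 to 0.00534% (95% Wilson interval, counting error only), and the 80 counts in miDrp1KO replicate 1 allow 0.00657 to 0.0102%. *Myh7b* held 0.00648, 0.00225 and 0.00281% in control and 0.00174, 0.0198 and 0.0202% in miDrp1KO libraries, on 17 to 214 counts a library. Group means for *Myh7* were 0.0531 ± 0.0737% and 0.396 ± 0.342% (SD, n = 3), with overlap (two-sided exact permutation test, p = 0.3). The difference of 0.343 percentage points was 0.537 without miDrp1KO replicate 1 and 0.213 without miDrp1KO replicate 2, and that of *Myh7b*, 0.0100, was 0.0161 without miDrp1KO replicate 1.

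The developmental chains made up a few percent of the pool. *Myh8* was 2.80, 3.41 and 2.97% of heavy chain counts in control and 3.32, 2.34 and 2.40% in miDrp1KO libraries. *Myh3* was 0.394, 0.541 and 0.377% in control and 0.588, 0.360 and 0.465% in miDrp1KO libraries. Together they made up 3.50 ± 0.396% of the pool in control and 3.16 ± 0.651% in miDrp1KO muscle (SD, n = 3; two-sided exact permutation test, p = 0.5). The difference of -0.340 percentage points lay within the SD of each group. Without miDrp1KO replicate 1 the *Myh8* share differed by -0.688 in place of -0.374 percentage points (p = 0.1 by the exact test, which with 2 against 3 cannot give less), and it differed by -0.201 without control replicate 2, -0.202 without miDrp1KO replicate 2 and -0.231 without miDrp1KO replicate 3. Beside the alternatives, 15 permutation tests were run on shares, sums of shares, the pool and ratios, none of which can give less than 0.1, and no permutation p was adjusted.

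**Figure D1:**
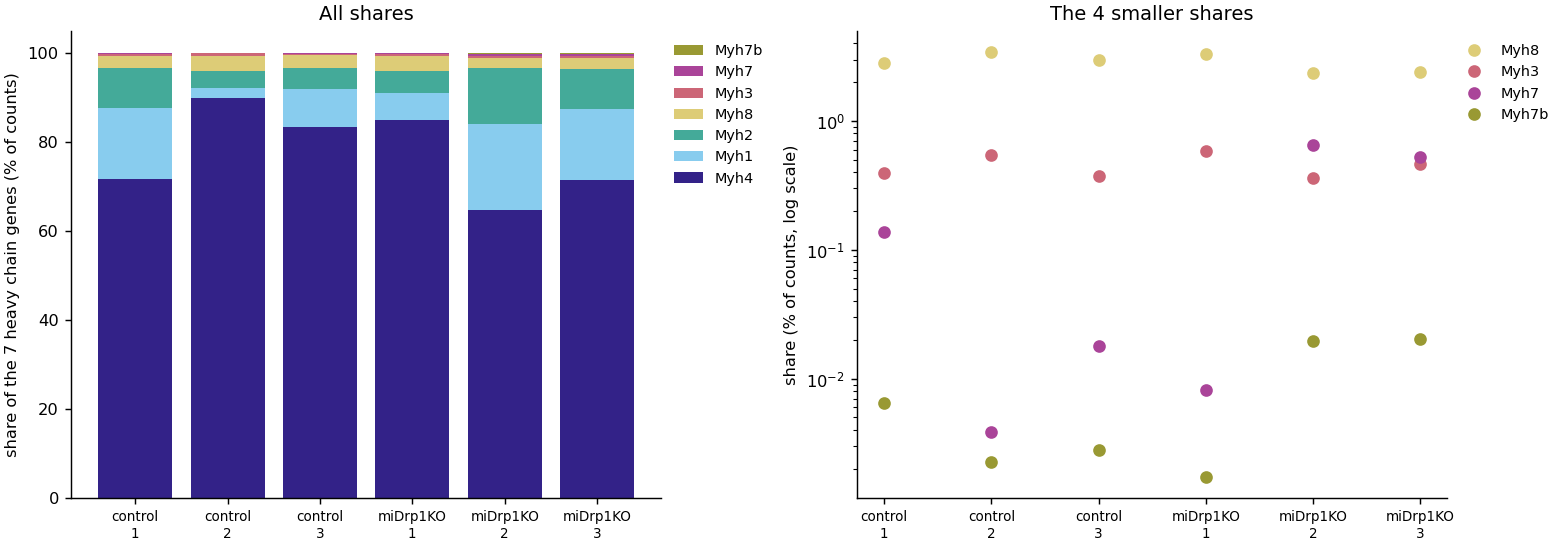
Share of each of the 7 genes in their summed counts, in percent, for 3 control and 3 miDrp1KO libraries. The left panel stacks all shares from 0 to 100%, and the right panel plots the 4 smaller ones on a log axis; *Myh4* leads in every library at 64.7 to 89.9%, and *Myh7* is highest in miDrp1KO replicates 2 and 3 and next in control replicate 1.

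As the transcripts differ little in length, shares of counts per kilobase were nearly the same. *Myh4* then held 81.9 ± 9.12% of the pool in control and 74.0 ± 10.2% in miDrp1KO muscle (SD, n = 3). As CPM per kilobase of transcript (RPKM, on TMM library sizes), *Myh4* led with 9478 ± 1097 in control and 3867 ± 2496 in miDrp1KO muscle. *Myh1* followed at 1041 ± 782 and 593 ± 224, and *Myh2* at 664 ± 321 and 397 ± 142 (SD, n = 3), and these neighbours overlapped in both groups. *Myh8* came next at 347 ± 25.9 and 141 ± 101, below *Myh2* in 6 of 6 libraries, and *Myh3* at 50.2 ± 6.94 and 25.1 ± 18.4, below *Myh8* in 6 of 6. *Myh7* stood at 5.97 ± 8.18 and 14.3 ± 13.7 RPKM. In 4 of 6 libraries *Myh7* was below *Myh3*, and in miDrp1KO replicates 2 and 3 it was above, at 28.0 against 15.8 and 14.4 against 13.2 RPKM. *Myh7b* was lowest at 0.437 ± 0.260 and 0.515 ± 0.361 RPKM.

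Tested one by one, *Myh4* was the most abundant member and 1 of 2 whose groups did not overlap. Control replicates 1, 2 and 3 held 49885, 58256 and 62914 CPM of it, and miDrp1KO replicates 1, 2 and 3 held 40363, 17190 and 12241 CPM. Every miDrp1KO library lay below every control library, and replicate 1 was much closer to the controls than replicates 2 and 3. The log2 fold change was -1.29 (SE, the standard error, 0.47; unadjusted p = 0.0184), and the p from the edgeR quasi-likelihood fit, adjusted by Benjamini-Hochberg over all 16483 genes tested, was 0.392, so it missed the threshold of 0.05. *Myh4* had rank 2, 3 or 4 among all genes by counts in 5 libraries and rank 10 in miDrp1KO replicate 3. Without that replicate the log2 fold change was -0.97 (adjusted p = 0.648), and with a correction for transcript length, added after the data were seen, it was -1.33 (adjusted p = 0.259).

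*Myh1* and *Myh2* were spread widely within both groups. *Myh1* was at 11035, 1526 and 6437 CPM in control and 2915, 5171 and 2730 CPM in miDrp1KO libraries. The control libraries alone span a 7.23-fold range that holds every miDrp1KO value. *Myh2* was at 6215, 2439 and 3454 CPM in control and 2390, 3293 and 1561 CPM in miDrp1KO libraries. Their log2 fold changes were -0.81 (SE 0.66, adjusted p = 0.689) and -0.74 (SE 0.39, adjusted p = 0.523), both by edgeR. Both were nearer to 0 without control replicate 1, at -0.12 for *Myh1* and -0.27 for *Myh2*, and *Myh1* was at -1.30 without control replicate 2. With limma voom *Myh1* was at -0.41 (adjusted p = 0.810) and *Myh2* at -0.71 (adjusted p = 0.465).

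The slow chain *Myh7* differed 70.3-fold between its highest and lowest library. It was at 95.7, 2.48 and 13.4 CPM in control and 3.89, 174 and 89.6 CPM in miDrp1KO libraries. High and low libraries were found in both groups. The log2 fold change of 1.26 had an SE of 1.82 (adjusted p = 0.844, edgeR), and without control replicate 1 it was 3.45 (adjusted p = 0.675). *Myh7b* was at 4.50, 1.46 and 2.12 CPM in control and 0.826, 5.25 and 3.46 CPM in miDrp1KO libraries, with a log2 fold change of 0.26 (SE 0.69, adjusted p = 0.922, edgeR). Its direction turned to -0.02 without control replicate 2 and to -0.33 without miDrp1KO replicate 2.

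Of the developmental chains, *Myh8* was at 1948, 2206 and 2239 CPM in control and 1576, 622 and 411 CPM in miDrp1KO libraries. All miDrp1KO libraries lay below all controls. The log2 fold change was -1.29 (SE 0.45, unadjusted p = 0.0191, adjusted p = 0.393, edgeR). *Myh3* was at 273, 351 and 284 CPM in control and 280, 95.5 and 79.6 CPM in miDrp1KO libraries, where replicate 1 lay among the controls and replicates 2 and 3 lay below all of them. Its log2 fold change was -0.998 (SE 0.49, adjusted p = 0.523, edgeR).

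**Figure D2:**
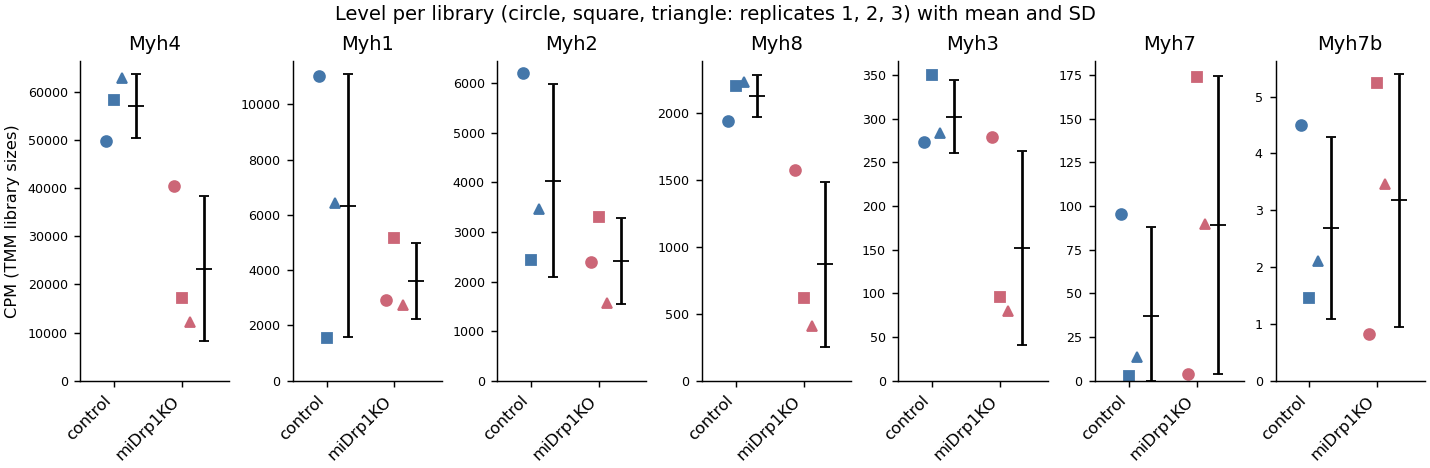
Level of each gene in CPM, with a separate axis from 0 for each gene; points are libraries, and the bars beside them give the mean and SD of 3 libraries, with the lower bar of *Myh7* in control drawn only to 0. The miDrp1KO points of *Myh4* and *Myh8* all lie below the control points, and those of the other 5 genes overlap them.

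Of the 7 members, 0 had an adjusted p under 0.05 with edgeR, beside 2 of the 16483 genes tested (0.0121%). At an unadjusted p under 0.05, 2 of 7 were lower in miDrp1KO muscle, beside 6.22% of all genes, and 0 of 7 were higher, beside 4.68%. Groups did not overlap in the lower direction for the same 2 genes, *Myh4* and *Myh8*, beside 10.3% of all genes, and in the higher direction for 0, beside 7.67%. The median log2 fold change of the members was -0.81, and that of all genes 0.02. The coding sequences of these 2 members are alike, and how far their counts share reads was not tested.

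The result depended on the tool and on miDrp1KO replicate 1. DESeq2, the tool of the study, gave *Myh4* a log2 fold change of -1.29 (adjusted p = 0.0278) and *Myh8* one of -1.29 (adjusted p = 0.0343), and it called 1.84% of the 4018 genes for which it gave an adjusted p as lower. limma voom called neither (adjusted p = 0.327 for both). Without miDrp1KO replicate 1, edgeR gave *Myh3* a log2 fold change of -1.77 (adjusted p = 0.0231) and *Myh8* one of -2.02 (adjusted p = 0.0377), beside 0.0336% of genes called lower, while *Myh4* was at -1.93 (adjusted p = 0.0628). The estimates for *Myh4*, *Myh8*, *Myh3*, *Myh1* and *Myh2* were negative, and that for *Myh7* positive, in all 14 alternatives run.

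**Figure D3:**
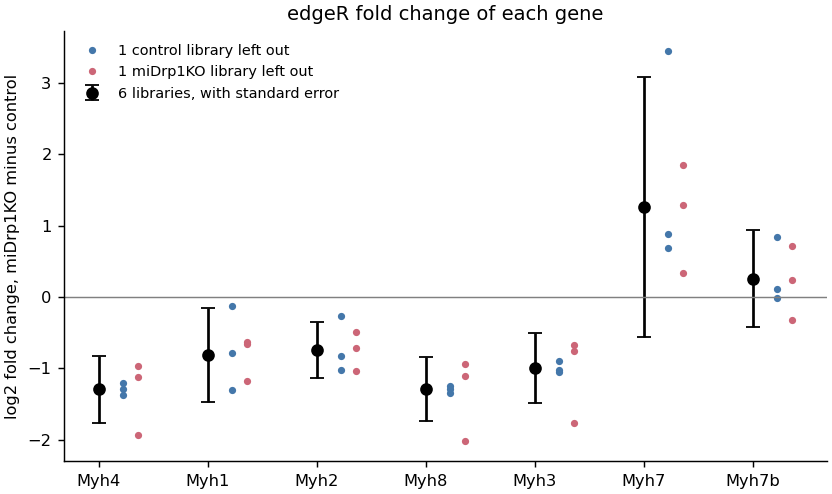
Log2 fold change of each gene, miDrp1KO minus control, from edgeR with its standard error (black), and the estimates with 1 control (blue) or 1 miDrp1KO (red) library left out. The 5 chromosome 11 genes lie below 0 in every fit shown, with the lowest point of *Myh4*, *Myh8* and *Myh3* in each case from leaving out miDrp1KO replicate 1, and *Myh7* has the widest error.

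Ratios within a library do not depend on its normalization. The log2 ratio of *Myh2* to *Myh4* was -3.00, -4.58 and -4.19 in control and -4.08, -2.38 and -2.97 in miDrp1KO libraries, with means 0.78 apart (two-sided exact permutation test, p = 0.2), which became 0.40 without miDrp1KO replicate 2, 0.45 without control replicate 2, 1.24 without control replicate 1 and 1.25 without miDrp1KO replicate 1. That of *Myh1* to *Myh4* was -2.18, -5.25 and -3.29 in control and -3.79, -1.73 and -2.16 in miDrp1KO libraries (two-sided exact permutation test, p = 0.5). Control replicate 1 had ratios like those of miDrp1KO replicates 2 and 3, and miDrp1KO replicate 1 ratios like those of control replicate 3. The log2 ratio of *Myh7* to the summed adult fast genes was -9.45, -14.62 and -12.41 in control and -13.52, -7.20 and -7.53 in miDrp1KO libraries (two-sided exact permutation test, p = 0.3). The developmental to adult fast ratio was -4.92, -4.60 and -4.85 in control and -4.62, -5.16 and -5.07 in miDrp1KO libraries, with a difference of -0.16 (two-sided exact permutation test, p = 0.4), which was -0.33 without miDrp1KO replicate 1 (p = 0.1 by the same exact test), -0.10 without miDrp1KO replicate 3, -0.07 without control replicate 2 and -0.06 without miDrp1KO replicate 2.

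*Myh8* kept nearly one proportion to *Myh4* in all libraries. There were 39.0, 37.9 and 35.6 counts of *Myh8* per 1000 of *Myh4* in control and 39.0, 36.2 and 33.6 in miDrp1KO libraries, a 1.16-fold range while *Myh4* itself ranged 5.14-fold. *Myh3* ran from 4.51 to 6.93 counts per 1000 of *Myh4*, a 1.54-fold range. By contrast *Myh4* per *Myh1* ranged 11.5-fold. On log2 CPM over the 6 libraries, Pearson's r with *Myh4* was 0.998 for *Myh8*, 0.976 for *Myh3*, 0.51 for *Myh2* and 0.13 for *Myh1*, as a description over libraries that differ in depth and share their preparation. *Myh1* and *Myh2* had r = 0.82 with each other, and *Myh7* and *Myh7b* 0.94. Of the windows of 50 bases in *Myh8*, 9.31% occur in *Myh4*, and of those in *Myh3*, 0.919%. The part of shared reads in these proportions was not tested.

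**Figure D4:**
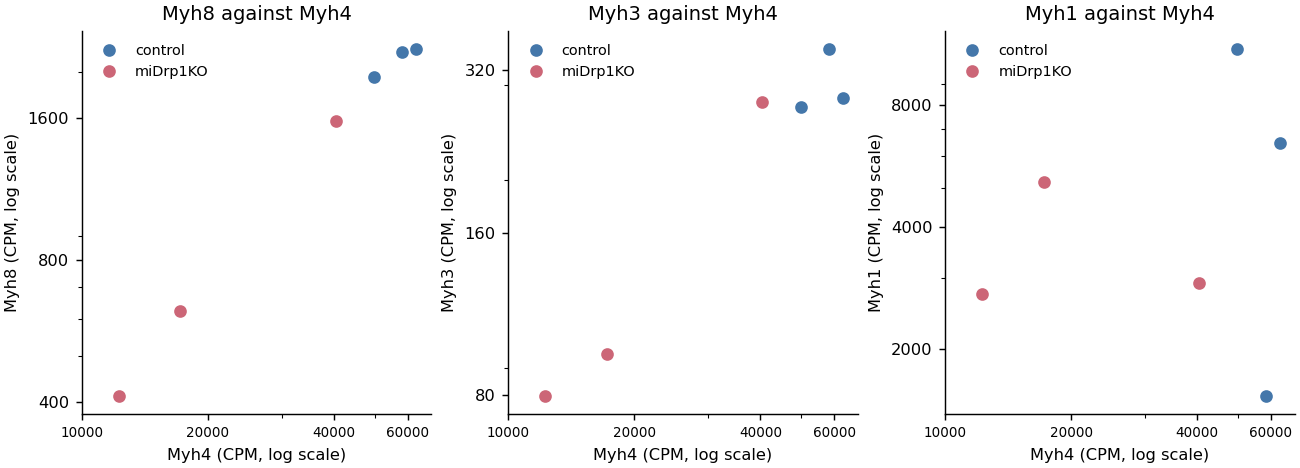
Level of *Myh8*, *Myh3* and *Myh1* against *Myh4* in each library, in CPM on log axes, with control libraries in blue and miDrp1KO in red. *Myh8* and *Myh3* line up with *Myh4* over a 5.14-fold range, and *Myh1* does not.

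The start regions of the genes are shown since *Myh4* and *Myh8* varied together across libraries. The 250 bases before an annotated transcript start were taken from RefSeq on GRCm38.p6, where all 7 members matched. For *Myh3* this window ends at base 67078299, inside the gene as placed above, and for the other 6 it ends where the gene begins. *Myh1*, *Myh2*, *Myh4* and *Myh8* share a run of 14 letters, TTCTAATTATATCC, and *Myh1*, *Myh4* and *Myh8* one of 15, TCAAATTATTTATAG. These are the longest runs common to those sets, and they are in capitals in the 90 bases around them.
Myh1: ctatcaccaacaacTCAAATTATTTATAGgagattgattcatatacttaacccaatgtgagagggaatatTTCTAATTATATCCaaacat
Myh2: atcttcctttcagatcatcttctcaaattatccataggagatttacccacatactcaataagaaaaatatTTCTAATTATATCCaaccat
Myh4: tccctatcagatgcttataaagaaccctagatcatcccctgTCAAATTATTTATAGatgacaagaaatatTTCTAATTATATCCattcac
Myh8: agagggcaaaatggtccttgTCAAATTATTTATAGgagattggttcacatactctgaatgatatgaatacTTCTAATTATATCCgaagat
The stretches cover chr11:67199872-67199961, chr11:67170832-67170921, chr11:67237584-67237673 and chr11:67277000-67277089, all on the plus strand. Over both strands, the run of 14 letters occurs in 4 of 27025 promoters (0.0148%) and that of 15 in 3 (0.0111%), which are these genes themselves. The runs do not overlap each other. A match describes letters only. *Myh3*, with r = 0.976 to *Myh4*, has neither run. *Myh1*, with r = 0.13, has both runs, and *Myh2*, with r = 0.51, has the run of 14 letters. A link between the runs and the levels was not tested. The letters TATAAAAG begin at positions -32, -29 and -31 in *Myh1*, *Myh3* and *Myh4*, counted back from -1 at the last base of the window, and are in 1.62% of promoters.

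Both slow-type members carry a microRNA in an intron, and these are shown since they share most of their seed, the bases 2 to 8 in capitals. They lie at chr14:54975710-54975731 (minus strand) and chr2:155622893-155622913 (plus strand) on GRCm38.p6, and their sequences come from RefSeq.
mmu-miR-208b-3p: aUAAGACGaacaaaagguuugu
mmu-miR-499-5p: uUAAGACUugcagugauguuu
The seeds agree at 6 of 7 bases. The miR-208b gene had 1 count and the miR-499 gene 0 counts over all 6 libraries. Libraries of total RNA made for long transcripts recover few mature microRNAs, so nothing about them was measured here.

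Of the slow fibre genes, 2 light chains and 3 troponins were set beside *Myh7* in each library. *Tnnt1*, slow troponin T, was at 58.0, 3.79 and 11.4 CPM in control and 3.55, 98.6 and 101 CPM in miDrp1KO libraries. *Myl2*, the slow regulatory light chain, was at 81.6, 5.17 and 10.8 CPM in control and 5.93, 134 and 126 CPM in miDrp1KO libraries. Control replicate 1 and miDrp1KO replicates 2 and 3 were high for both, as they were for *Myh7*. Pearson's r with *Myh7* over the 6 libraries was 0.99 for *Tnnt1*, 0.98 for *Myl2* and *Tnni1* (slow troponin I), 0.97 for *Tnnc1* (slow troponin C) and 0.81 for *Myl3*, the slow essential light chain. *Myl3* was at 95.9, 4.96 and 5.26 CPM in control and 34.1, 125 and 166 CPM in miDrp1KO libraries. *Tnni1* and *Tnnc1* had the largest estimates of the 5, with log2 fold changes of 2.16 (SE 1.73, adjusted p = 0.705, edgeR) and 2.35 (SE 1.60, adjusted p = 0.656, edgeR).

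Of the 11 slow partner genes tested, 0 passed, 9 had a higher and 2 a lower estimate, and the groups overlapped in all 11. Their median log2 fold change was 0.99, beside 0.02 for all genes. The 3 with the lowest unadjusted p were *Tpm3*, the slow tropomyosin (log2 fold change 0.99, adjusted p = 0.594, edgeR), *Tnnc1* and *Tnni1*. This list, like all lists here, was written with earlier results of these data known. Not all of the list followed *Myh7*: *Myl6b*, another light chain, was at 0.900 CPM in control replicate 1 against 1.53 and 1.78 CPM in the other controls.

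The fast partner genes did not track *Myh4* alike. *Tnnt3*, fast troponin T, was at 28709, 32432 and 31946 CPM in control and 28349, 14641 and 20504 CPM in miDrp1KO libraries. *Tnnc2*, fast troponin C, was at 9870, 12045 and 11273 CPM in control and 9657, 6040 and 7400 CPM in miDrp1KO libraries. For both, the groups did not overlap, and r with *Myh4* was 0.87 and 0.90. *Tnni2*, fast troponin I, did not overlap either, at 7811 to 8125 CPM in control and 4854 to 7592 CPM in miDrp1KO libraries. *Mylpf*, the fast regulatory light chain, was at 6905 to 10136 CPM in control and 6681 to 9816 CPM in miDrp1KO libraries (log2 fold change -0.03, SE 0.30, adjusted p = 0.981, edgeR). *Myl1*, the fast essential light chain, overlapped too (-0.11, SE 0.39, adjusted p = 0.948, edgeR). In miDrp1KO replicates 2 and 3, *Mylpf* was at 6681 and 8595 CPM while *Myh4* was at 17190 and 12241 CPM. Their transcripts are 766 and 6016 bases long, and in replicate 3 short transcripts stood higher and those of heavy chain length lower, as given above. The part of transcript length in this comparison was not tested.

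Of the 13 fast partner genes tested, 0 passed with edgeR, and 12 had a lower estimate (median -0.53). At an unadjusted p under 0.05, 5 were lower, beside 6.22% of all genes, and 5 had all miDrp1KO libraries below all controls, beside 10.3%. The 3 with the lowest unadjusted p were *Casq1*, the calcium buffer of the fast sarcoplasmic reticulum (log2 fold change -0.72, adjusted p = 0.392), *Actn3*, the fast alpha-actinin (-0.95, adjusted p = 0.407) and *Mybpc2*, the fast myosin binding protein C (-1.03, adjusted p = 0.415).

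**Figure D5:**
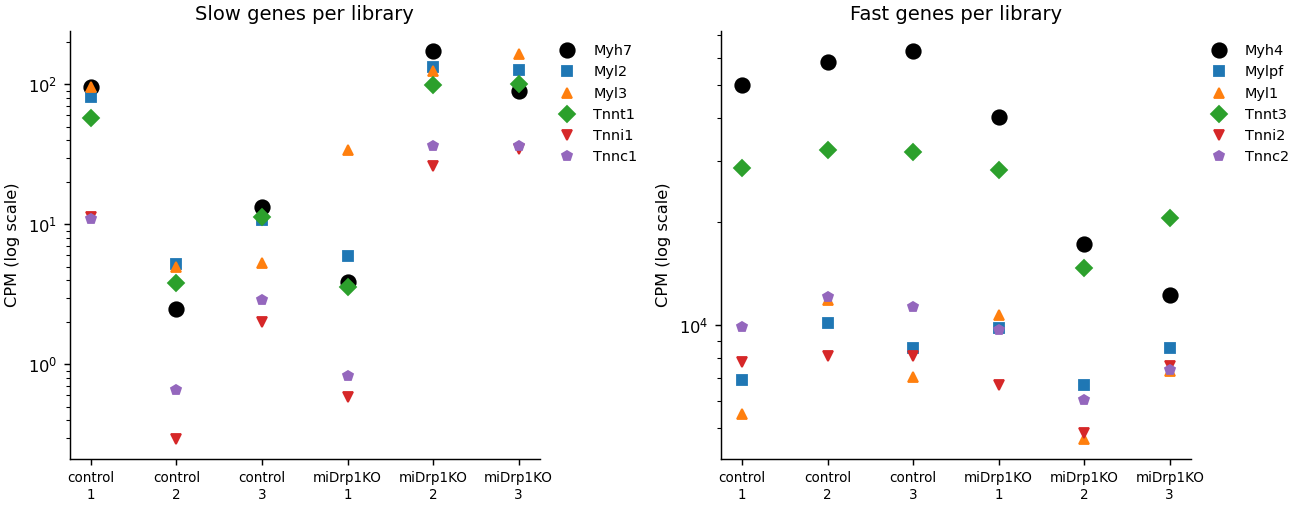
Level in CPM, on a log axis, of *Myh7* with 5 slow partner genes (left) and of *Myh4* with 5 fast partner genes (right) in each library. The slow genes are high together in control replicate 1 and miDrp1KO replicates 2 and 3; on the right, *Myh4* is lowest in miDrp1KO replicates 2 and 3, and the light chain *Mylpf* lies between 6681 and 10136 CPM in all 6 libraries.

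Genes for folding and assembly of the thick filament were also lower in estimate. Of 10 tested, 0 passed, 10 had a lower estimate (median -0.60), 5 at an unadjusted p under 0.05 beside 6.22% of all genes. *Myom2*, an M-band protein of the thick filament, had a log2 fold change of -1.11 (adjusted p = 0.392, edgeR), and *Hsp90ab1*, a chaperone with a role in myosin folding, was at -0.63 (adjusted p = 0.392) with no overlap between groups. Of the 6 other heavy chain genes tested, 5 had a lower estimate and 0 passed. *Myh14*, a nonmuscle chain, was at 22.4 to 33.3 CPM in control and 9.45 to 19.6 CPM in miDrp1KO libraries (log2 fold change -0.99, adjusted p = 0.362, edgeR). *Myh13*, the extraocular chain next to *Myh8*, was at 304 to 827 CPM and 222 to 366 CPM (-1.13, adjusted p = 0.387), and *Myh9*, the main nonmuscle chain, had an estimate of -0.48 (adjusted p = 0.487). Of the windows of 50 bases in *Myh8*, 4.79% occur in *Myh13*, and of those in *Myh1*, 3.22%. How far the counts of *Myh13* are reads of the more abundant members was not tested.

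Regeneration and developmental partners of *Myh3* and *Myh8* did not share their direction. Of 13 tested, 10 had a higher and 3 a lower estimate, and 0 passed. Those with the lowest unadjusted p were *Runx1*, a transcription factor raised in denervated muscle (log2 fold change 0.75, SE 0.22, adjusted p = 0.379, edgeR), *Myl4*, the embryonic light chain (0.73, SE 0.24, adjusted p = 0.382, edgeR), and *Mymk*, the fusion protein of myoblasts, which was at 0 to 0.183 CPM in control and 0.392 to 0.583 CPM in miDrp1KO libraries. *Myl4* was at 2.00 to 2.84 CPM in control and 4.08 to 4.31 CPM in miDrp1KO libraries. For these 3 of 13 genes every miDrp1KO library was above every control library, beside 7.67% of all genes, at levels of 9.09 CPM or less.

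Among 18 regulators of heavy chain genes, 11 had a lower and 7 a higher estimate and 0 passed. Among them were *Mef2d*, a muscle transcription factor (log2 fold change -0.62, adjusted p = 0.407), and *Eya1*, a cofactor of homeobox factors in muscle (-0.38, adjusted p = 0.45), both from edgeR. The noncoding gene *2310065F04Rik*, also called linc-Myh, lies between *Myh3* and *Myh2* (67112461 to 67120080 on chromosome 11). It was at 81.9, 90.1 and 105 CPM in control and 73.9, 62.6 and 75.8 CPM in miDrp1KO libraries, without overlap (log2 fold change -0.38, SE 0.17, adjusted p = 0.451, edgeR).

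Markers of other cells were measured beside these results. The 7 adipose markers all had lower estimates and summed to 428 to 691 CPM in control and 284 to 408 CPM in miDrp1KO libraries, without overlap. *Adipoq*, the adipokine adiponectin, was at 23.9 to 52.9 CPM and 9.78 to 21.1 CPM, *Plin1*, a lipid droplet protein, at -1.17 (adjusted p = 0.392) and *Cfd*, the adipsin gene, at -1.07 (adjusted p = 0.418) on the log2 scale. The sums overlapped for blood (47.2 to 272 and 73.1 to 231 CPM), nerve (34.8 to 46.0 and 38.0 to 67.4 CPM), macrophage (148 to 273 and 214 to 244 CPM), fibroblast (1218 to 1714 and 1347 to 2291 CPM), tendon (135 to 259 and 116 to 515 CPM), endothelium and smooth muscle lists. All 6 fibroblast and all 5 tendon markers had higher estimates (medians 0.27 and 0.61), and the highest tendon sum was in miDrp1KO replicate 2. Satellite cell markers summed to 22.2 to 25.9 CPM in control and 19.5 to 22.2 CPM in miDrp1KO libraries, ranges that all but touch. Of the 5 satellite cell markers 3 had a higher and 2 a lower estimate (median 0.30), with *Cdh15*, a cadherin of myogenic cells, at -0.76 (SE 0.19, adjusted p = 0.362, edgeR) and *Pax7*, the transcription factor of satellite cells, at 0.68 (SE 0.42, adjusted p = 0.578, edgeR). Of the 7 myofibre markers 6 had lower estimates. Their sums overlapped, at 148908 to 208246 CPM in control and 67317 to 155986 CPM in miDrp1KO libraries. The 3 with the lowest unadjusted p were *Ryr1*, the calcium release channel, at -1.31 (adjusted p = 0.379, edgeR), *Neb*, the thin filament ruler nebulin, at -0.90 (adjusted p = 0.496) and *Ttn*, the sarcomere spring titin, at -0.90 (adjusted p = 0.556). The transcripts of these genes are long, at 15358, 22489 and 106824 bases. *Des*, the desmin gene, was at -0.18 (adjusted p = 0.836, edgeR), and *Mb*, the myoglobin gene, had a higher estimate, at 0.67 (adjusted p = 0.787, edgeR). *Ttn* was at 26349 CPM in miDrp1KO replicate 3 and 66485 to 141256 CPM in the other 5 libraries. The part of these cell markers in the heavy chain results was not tested. With ribosomal RNA genes left out, the log2 fold changes of *Myh4* and *Myh8* were both -1.27, and with the length correction both were -1.33.

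Likeness of log2 CPM over the 6 libraries was ranked among 7172 other genes with a mean of at least 10 CPM. The 7 members were left out of this ranking. The genes named are the highest of 7172 values over 6 libraries that share their preparation, so a high r follows in part from the choice. Shared regulation with the members was not tested. The genes nearest to *Myh4* were then *AI464131*, *Tab2* and *Cc2d1b*, each with Pearson's r of 0.998 or 0.999. The members *Myh4* and *Myh8* had r = 0.998 with each other. Outside the members, *Cc2d1b*, *Eif2ak1* and *Prkar2a* were nearest to *Myh8*, at 0.997 each. *Tnip1*, *Synrg* and *Ulk2* were nearest to *Myh3* (0.998, 0.997 and 0.995). *Clip4*, *Pptc7* and *Xirp1* were nearest to *Myh1* (0.987, 0.980 and 0.978), and *Cxcl12*, *Utp11* and *Gbp9* to *Myh2* (0.990, 0.985 and 0.985). *Nceh1*, *Myh6* and *Meox2* were nearest to *Myh7* (0.990, 0.986 and 0.986), of which *Myh6* shares sequence with it, and *Slc20a2*, *Cavin2* and *Pdgfrb* to *Myh7b* (0.985, 0.982 and 0.980).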

How the data were processed

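RNA-seq of quadriceps was analysed for 3 control and 3 miDrp1KO mice, grouped by the genotype label, with replicates numbered in the order of deposit. The authors deposited raw counts per gene, made with Rsubread on GRCm38 from ribosome-depleted stranded total RNA libraries sequenced in pools. Their notes name FastQC and DESeq2 1.30.0. The library in each pool, the strand setting and the treatment of reads with several matches are not given in the sources used here, so counts of near-identical heavy chain genes are uncertain. The members and gene lists were chosen with earlier results of these data known.

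Differences in counts were fitted by edgeR 4.0.16 under R 4.3.3 (TMM, filterByExpr by group, robust quasi-likelihood fit, Benjamini-Hochberg adjustment, threshold 0.05) and the fit was tested on simulated data. Shares, the pool in CPM and ratios were compared by two-sided exact permutation tests over 20 assignments. Alternatives were DESeq2 1.42.0, limma voom 3.58.1, RLE and upper quartile scaling, no filter, at least 10 counts in every library, ribosomal RNA genes (28) left out, shares and ratios per kilobase, adult genes only, TMM library sizes, 6 fits that leave out 1 library each, and, added after seeing the data, a correction for transcript length (natural spline, 5 degrees of freedom). Named besides the members were up to 3 genes of each list with the lowest unadjusted p, 5 slow and 5 fast partners, *Dnm1l* and, for likeness, 3 genes per member (log2 CPM, prior count 2). Some genes that this rule names are not reported here. Coding sequences (GENCODE M21) were aligned with MAFFT 7.526.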

Additional observations from a re-analysis of the deposited data

How the results depend on the processing

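The calls over all genes numbered 2 with edgeR, 94 with DESeq2, 1 with limma voom, 8 with no filter on low counts, 3 with the length correction added after seeing the data, 1 to 7 with 1 library left out (7 without miDrp1KO replicate 1, 1 without miDrp1KO replicate 2 or 3) and 1796 at an unadjusted p under 0.05. DESeq2 also called *Myh4* (-1.29) and *Myh8* (-1.29) as lower. Of 98 alternative fold changes of the 7 members, 92 kept their direction and their side of the threshold, 4 passed it and 2 turned direction. With 1 library left out the log2 fold change ran from -1.93 to -0.97 for *Myh4*, from -2.02 to -0.94 for *Myh8*, from -1.77 to -0.67 for *Myh3*, from -1.30 to -0.12 for *Myh1*, from -1.04 to -0.27 for *Myh2*, from 0.34 to 3.45 for *Myh7* and from -0.33 to 0.84 for *Myh7b*. It was *Myh7b* that turned, without control replicate 2 (-0.02) and without miDrp1KO replicate 2 (-0.33). Of 89 alternative differences of shares, pool and ratios, 1 turned: the *Myh3* share ran from -0.0247 to 0.0896 percentage points, with the negative value without miDrp1KO replicate 1. The *Myh1* share difference was 1.64 points without control replicate 2 and 8.78 without miDrp1KO replicate 1, and that of *Myh2* 1.31 without miDrp1KO replicate 2 and 4.996 without miDrp1KO replicate 1. The log2 ratio of *Myh1* to *Myh4* differed by 0.17 without control replicate 2 and 1.71 without control replicate 1, and that of *Myh7* to adult fast genes by 1.51 without control replicate 2 and 4.79 without miDrp1KO replicate 1. The cause of these shifts was not tested. Upper quartile scaling moved the median of all genes to 0.11, and *Myh4* was then at -1.22. No paired analysis was possible because the labels give the mice no shared numbers. With 3 libraries a group the standard errors of the members ran from 0.39 to 1.82 on the log2 scale, and *Myh7b* rested on 17 to 214 counts a library. Estimates well beyond their standard error also missed the threshold, as for *Myh4* at -1.29 with SE 0.47 (adjusted p = 0.392, edgeR). Real differences of that size could therefore be missed.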
